A study of Mus musculus with 24 samples.

Results

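Glycolysis and hypoxia genes are a set of 34 genes chosen by name. Their products split glucose, decide the fate of pyruvate, or make up and answer the cell's oxygen-sensing pathway. Where several probe sets read a gene, the one with the highest mean stood for it, among probe sets that carry 1 gene symbol in the platform annotation. By this rule 30 of the 34 genes were measured, out of 18193 genes in all. They were 12 glycolytic enzymes, 5 genes that set glycolytic flux or the fate of pyruvate, 7 hypoxia-inducible factor (HIF) subunits and hydroxylases, and 6 other hypoxia-inducible genes. The levels of Gpi1 and Eno1 were not analysed here. Apart from array controls, Gapdh and Bnip3l were read only by probe sets that also carry other gene symbols, so their values stand apart from the tests.

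The 24 arrays measured total RNA from 8 groups of 3 mouse retinal endothelial cell cultures. Cells without the Norrin receptor frizzled-4 (Fz4-/-) and wild type cells were each grown on Matrigel, on gelatin, with HEK293 cells that express Norrin, and with control HEK293 cells. Norrin is a secreted protein that steers the growth of retinal vessels. HEK293 is a human embryonic kidney line. Matrigel is a basement membrane extract, and the Matrigel cultures were collected after 6 hours in 1% serum, following 24 hours in 1% serum. All lines, wild type included, carry the SV40 large T antigen in a temperature-sensitive form, driven by the interferon-responsive H2Kb promoter of the Immorto-mouse. The mice were adults of both genders with a C57Bl6/129 mixed background. Lines were passaged at 33 °C on gelatin, and for RNA they were kept at 37 °C without interferon gamma. The labels do not say whether the 3 arrays of a group came from separate cultures, passages or animals, so every p below measures the spread between these arrays. For the same reason, loss of frizzled-4 cannot be told apart from other differences between the lines or animals in any comparison of the genotypes. The labels give no oxygen tension or glucose level for any group.

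Glycolysis turns glucose into pyruvate. Hexokinase and phosphofructokinase control entry into the pathway, and lactate dehydrogenase together with the lactate exporter MCT4 (Slc16a3) carries the end product out of the cell. Endothelial cells are known to rely on glycolysis for most of their energy, and the regulator Pfkfb3 is known for its part in vessel sprouting. When oxygen is short, prolyl hydroxylases (Egln1, Egln3) stop marking the HIF alpha subunits for destruction. HIF-1α (Hif1a) and HIF-2α (Epas1) then accumulate as proteins and raise the transcription of most genes of this set, so that HIF activity need not show in the level of the Hif1a transcript.

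All values are log2 probe set intensities made with RMA, in which a difference of 1 is a 2-fold change. The median of all probe sets on an array lay between 5.02 and 5.10 in the 12 single cultures, between 3.44 and 3.52 in the wild type co-cultures and between 3.21 and 3.31 in the Fz4-/- co-cultures. Array set here means a group of arrays with like medians, which no label names. In the co-cultures it goes with genotype, so genotype and array set cannot be told apart there. Mouse and human RNA were mixed at about equal parts in the co-cultures, per the labels, and probe sets there can also bind human transcripts. Levels were compared within a gene only, since different probe sets bind with different strength. The targeted gene, Fzd4, lay between 4.61 and 5.50 in Fz4-/- cells, against 8.44 to 9.09 in wild type cells on gelatin. All 10 endothelial markers on a list that includes Cdh5, Pecam1 and Kdr were read. Their mean level was 10.58 to 10.65 in Fz4-/- and 10.42 to 10.49 in wild type arrays on gelatin. On all single-culture arrays the lists for glia, retinal neurons and microglia read 3.57 to 3.97. The fibroblast list read 4.12 to 5.07, the mural list 4.64 to 5.09 and the pigment epithelium list 4.78 to 5.33. These are means over a list, which single genes can exceed, so they do not show that a cell type was absent. Between the genotypes on gelatin, single mural genes differed by -1.54 to 1.28 and single fibroblast genes by -1.31 to 1.47.

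In single cultures no enzyme of glycolysis passed the test between the genotypes when all 12 arrays were fitted without pairing. None of the 12 glycolytic enzymes passed the test between Fz4-/- and wild type cells, either on gelatin or on Matrigel. Their log2 differences ran from -1.48 to 0.42 on gelatin and from -1.16 to 0.46 on Matrigel. The test was limma, with p adjusted by Benjamini-Hochberg over all genes and a threshold of 0.05, and Eno2 was the 1 enzyme with an unadjusted p below 0.05 in each medium. With the replicate number as a block, Eno2, Hk2 and Pfkl passed in both media and Hk1 on gelatin. Pgk1, the first ATP-forming enzyme of the pathway, read 12.61, 12.56 and 12.55 in Fz4-/- cells and 12.72, 12.49 and 12.55 in wild type cells on gelatin. The difference was -0.01, with a 95% confidence interval from -0.19 to 0.17. Pkm, the pyruvate kinase, read 12.62, 12.57 and 12.56 in Fz4-/- cells and 12.60, 12.52 and 12.62 in wild type cells, and its interval ran from -0.18 to 0.19. For both enzymes the arrays of the genotypes overlapped and the interval was narrow. For Hk2, the inducible hexokinase, it was wide, from -1.33 to 0.38. Aldoc, the brain-type aldolase, read 3.26, 4.06 and 4.20 in Fz4-/- cells and 3.48, 3.35 and 3.42 in wild type cells on gelatin, so that array 1 lay below and arrays 2 and 3 above the wild type arrays. All these values lay below the median of all probe sets on the gelatin arrays, 5.02 to 5.06, and no detection call was used. The brightest Gapdh probe set, which also matches pseudogenes, differed by -0.03 in each medium.

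Eno2, the neuronal-type enolase, had the largest difference of the 30 genes on gelatin. It read 3.98, 5.80 and 5.72 in Fz4-/- cells, against 6.03, 6.87 and 7.03 in wild type cells on gelatin, and 4.98, 6.33 and 6.36 in Fz4-/- cells, against 6.42, 7.37 and 7.34 in wild type cells on Matrigel. Every Fz4-/- array lay below every wild type array in both media. The differences were -1.48 ± 0.52 (SE, n = 3 arrays per group) and -1.16 ± 0.52, and neither passed the test (limma adjusted p = 0.0813 and 0.168). With the replicate number as a block the same differences passed, at adjusted p = 0.00013 and 0.000639.

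**Figure D1:**
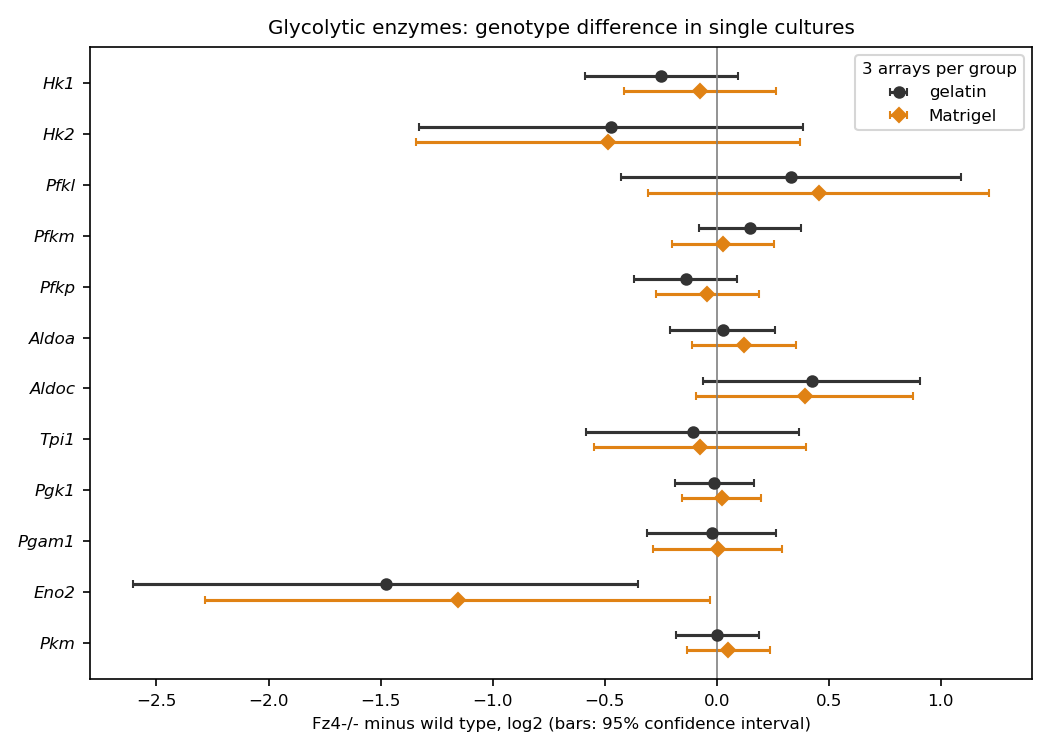
Difference between Fz4-/- and wild type cells in the 12 measured glycolytic enzymes on gelatin (dark circles) and Matrigel (orange diamonds), in log2 units, with the 95% confidence interval of limma as a bar and n = 3 arrays per group. All intervals but those of Eno2, at -1.48 and -1.16, cross 0, and those of Pgk1 and Pkm are narrow.

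Outside the enzymes, a few regulators and hypoxia-inducible genes differed between the genotypes. On gelatin 2 genes of the set were higher and 2 lower in Fz4-/- cells, that is 4 of 30, and 14.9% of all 18193 genes passed the same test (7.21% higher, 7.73% lower). On Matrigel 3 were higher and 2 lower, beside 15.7% of all genes (6.91% higher, 8.77% lower). Both counts lie close to the share of all genes, and the median difference of the 30 genes was -0.02 on gelatin and 0.01 on Matrigel, beside 0.00 and 0.02 over all genes. The same 4 genes, Ndrg1, Kdm3a, Epas1 and Pfkfb4, passed in both media, and Ankrd37 passed on Matrigel only. Whether the media differ was tested by the difference between the Matrigel responses of the genotypes, which was past the threshold for none of the 30 genes (limma; 1 of 30 at an unadjusted p below 0.05, and 0.0165% of all genes past the threshold).

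Ndrg1, a stress-inducible gene that hypoxia raises in many cell types, had the largest increase. It read 9.38, 9.67 and 9.62 in Fz4-/- cells and 8.67, 8.17 and 8.11 in wild type cells on gelatin. On Matrigel it read 9.40, 9.70 and 9.77 in Fz4-/- cells and 8.80, 8.35 and 8.29 in wild type cells. All Fz4-/- arrays stood above all wild type arrays. The differences were 1.24 ± 0.18 (SE, limma adjusted p = 0.000625) and 1.15 ± 0.18 (adjusted p = 0.00104). The other 4 probe sets of Ndrg1 gave differences of 0.85 to 1.39 on gelatin and 0.91 to 1.14 on Matrigel.

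Epas1, which encodes HIF-2α, the HIF subunit typical of endothelium, was lower in Fz4-/- cells. It read 9.98, 10.40 and 10.42 in Fz4-/- cells, against 10.92, 11.17 and 11.14 in wild type cells on gelatin, and 10.51, 10.54 and 10.54 in Fz4-/- cells, against 11.21, 11.32 and 11.33 in wild type cells on Matrigel. The groups did not overlap in either medium. The differences were -0.81 ± 0.12 (limma adjusted p = 0.000754) and -0.76 ± 0.12 (adjusted p = 0.00115). A second probe set gave -0.78 and -0.81 and was not past the threshold. Hif1a, by contrast, read 11.66, 11.59 and 11.50 in Fz4-/- cells and 11.43, 11.62 and 11.36 in wild type cells on gelatin, a difference of 0.11 with overlapping arrays that did not pass.

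Pfkfb4, a bifunctional enzyme that sets the level of the phosphofructokinase activator fructose-2,6-bisphosphate, fell as well. It read 5.67, 5.80 and 6.00 in Fz4-/- cells, against 6.35, 6.47 and 6.23 in wild type cells on gelatin, and the difference was -0.53 ± 0.11 (limma adjusted p = 0.00605). On Matrigel it was -0.55 ± 0.11 (adjusted p = 0.00426). Kdm3a, an oxygen-dependent histone demethylase and HIF target, read 9.09, 8.90 and 8.98 in Fz4-/- cells and 8.63, 8.66 and 8.66 in wild type cells on gelatin. It was higher by 0.34 ± 0.09 there (adjusted p = 0.0188) and by 0.55 ± 0.09 on Matrigel (adjusted p = 0.0011). The gelatin call for Kdm3a ended without Fz4-/- array 1 or 3 or wild type array 2 or 3, with differences of 0.29 to 0.35.

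Ankrd37, a small ankyrin-repeat HIF target, read 7.04, 6.86 and 7.05 in Fz4-/- cells and 5.03, 6.14 and 6.51 in wild type cells on Matrigel. The wild type arrays were spread over more than a log2 unit, with array 1 lowest. The difference was 1.09 ± 0.29 (limma adjusted p = 0.026), and it did not pass when any 1 of the Fz4-/- Matrigel arrays was left out, at 1.06 to 1.15. Without wild type Matrigel array 1 it was 0.66 and passed. On gelatin Ankrd37 was at 5.93, 6.20 and 6.13 in Fz4-/- cells and 6.13, 6.52 and 6.70 in wild type cells, a difference of -0.37 that did not pass.

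Bnip3, a mitochondrial receptor for mitophagy, stood at 8.45, 9.54 and 9.51 in Fz4-/- cells and 8.26, 8.52 and 8.65 in wild type cells on gelatin. The groups overlapped through Fz4-/- array 1, and the difference of 0.69 ± 0.32 did not pass (limma adjusted p = 0.195). Its relative Bnip3l was outside the fit across genes. The Bnip3l probe sets, which also match a pseudogene, differed by 0.39, 0.39 and 0.50 on gelatin and by 0.30, 0.25 and 0.36 on Matrigel, each higher in Fz4-/- cells. Car9, the carbonic anhydrase often used as a hypoxia marker, lay between 5.68 and 6.13 in Fz4-/- cells and between 6.02 and 6.40 in wild type cells on gelatin, a difference of -0.30 that did not pass. Slc16a3, Ldha, Pdk1, Pfkfb3, Egln1, Egln3, P4ha1, P4ha2 and Higd1a also did not pass between the genotypes in either medium when all arrays were fitted without pairing.

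**Figure D2:**
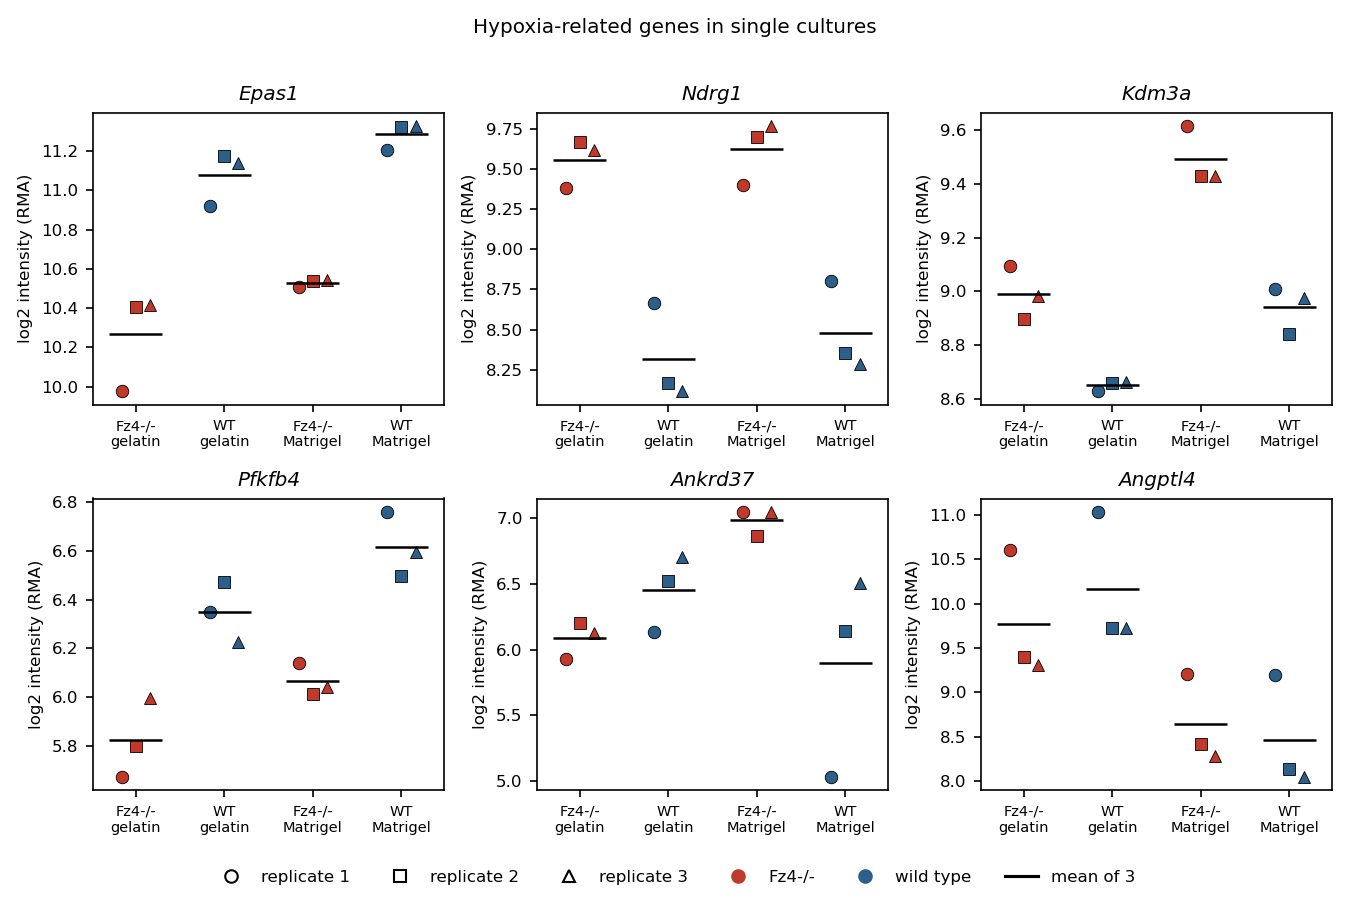
Log2 intensity of 6 hypoxia-related genes on each of the 12 arrays of single cultures, by group, with a bar at the mean of 3 arrays and the marker shape giving the replicate number. Epas1 and Pfkfb4 are lower and Ndrg1 and Kdm3a higher in Fz4-/- cells (red) than in wild type cells (blue) in both media, and array 1 stands apart from arrays 2 and 3 for Angptl4 in every group.

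Arrays with equal replicate numbers deviated together in the single cultures, so the genotype comparison was also fitted with the number as a block. With the block 12 of 30 genes passed on gelatin, beside 22.7% of all genes, and 11 on Matrigel, beside 24.1%. Genes that passed with the block and not without it on gelatin were Eno2, Slc16a3 (-0.70), Bnip3 (0.69), Hk2 (-0.47), Angptl4 (-0.39), Pfkl (0.33), Higd1a (-0.32) and Hk1 (-0.25). On Matrigel they were Eno2, Bnip3 (0.82), Hk2 (-0.49), Pfkl (0.46), Egln3 (0.43) and Slc16a3 (-0.35). Slc16a3 and Hk2 thus read lower, and Bnip3 and Pfkl higher, in Fz4-/- cells in both media. The fit of all arrays without the block did not give these calls. Pairing was not the only change of setting that gave more calls. Without array 1 of every group, 13 of 30 genes passed on gelatin, beside 27% of all genes, and 14 on Matrigel, beside 26.7%. In the fit of all arrays without the block, 7 of 13 cell cycle genes were lower in Fz4-/- cells on gelatin, beside 7.73% of all genes. On Matrigel 6 of 13 were lower, beside 8.77%. All 13 lay below 0 in both media, with medians of -1.29 on gelatin and -1.37 on Matrigel. The part of cell division in these differences was not tested.

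The replicate numbers set many glycolysis and hypoxia genes apart in the same way in all 4 single-culture groups. In 13 of the 30 genes array 1 was the lowest of the 3 arrays in all 4 groups, beside 10% of all genes, and in 1 gene it was the highest in all 4, beside 13%. The median difference between array 1 and the mean of arrays 2 and 3 was -0.29 over the 30 genes and 0.03 over all genes. Slc16a3, the lactate exporter, showed the widest gap. It read 4.56, 6.17 and 6.31 in Fz4-/- cells and 5.39, 6.78 and 6.97 in wild type cells on gelatin, then 4.54, 6.07 and 6.21 in Fz4-/- cells and 4.73, 6.40 and 6.72 in wild type cells on Matrigel. Array 1 lay more than a log2 unit below the others in each group, a mean gap of -1.65. The gap was -1.25 for Eno2, -1.15 for Egln3, -0.96 for Hk2, -0.86 for Pfkl, -0.75 for Bnip3 and -0.69 for Pdk1, the kinase that holds pyruvate back from the mitochondria. Smaller gaps in the same 13 were -0.49 for the collagen prolyl hydroxylase P4ha1, -0.47 for Tpi1, -0.38 for Egln1, -0.34 for Hk1, -0.21 for Epas1 and -0.17 for Pfkp.

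Angptl4, a secreted lipase inhibitor that hypoxia, fatty acids and glucocorticoids can raise, ran the other way. It read 10.60, 9.40 and 9.31 in Fz4-/- cells and 11.03, 9.73 and 9.72 in wild type cells on gelatin, so that array 1 was highest in both, and the mean gap over the 4 groups was 1.13. Ndrg1 differed by genotype in this respect, with array 1 lowest in both Fz4-/- groups and highest in both wild type groups. Pgk1, Pkm and Hif1a had mean gaps between 0.01 and 0.10, with single groups between -0.27 and 0.25. The numbers are labels of the arrays and not conditions of the study, so these gaps are given with no test. Beside them, the 3′ to 5′ difference of the actin control probe sets, a measure of RNA integrity, was highest on array 1 in all 4 groups, at 0.75 against 0.38 and 0.35 in Fz4-/- cells on Matrigel, 0.40 against 0.31 and 0.30 in wild type cells on Matrigel, 0.37 against 0.26 and 0.29 in Fz4-/- cells on gelatin and 0.31 against 0.27 and 0.21 in wild type cells on gelatin. The cell cycle list stood at 7.94 on array 1 of Fz4-/- cells on gelatin, against 9.38 and 9.35 on arrays 2 and 3, whereas it stayed between 10.09 and 10.25 on all wild type arrays of both media. The part of RNA integrity and of cell division in the gaps was not tested.

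**Figure D3:**
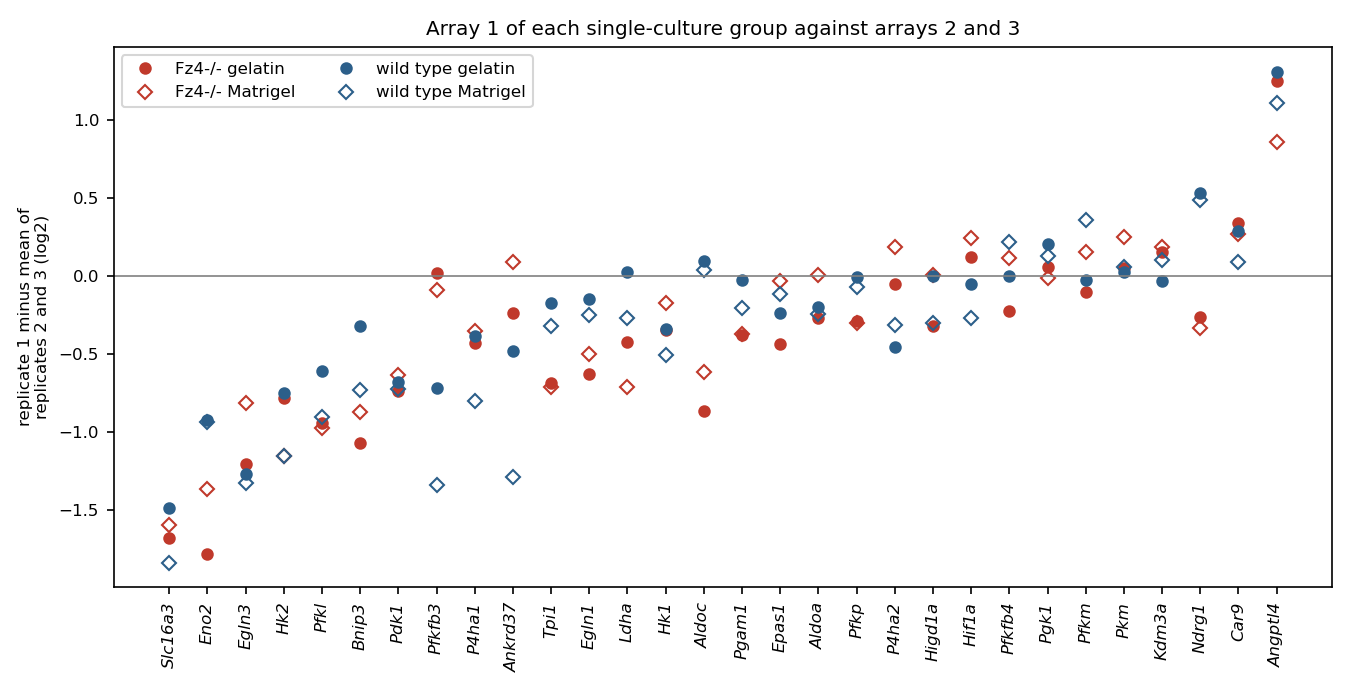
Array 1 minus the mean of arrays 2 and 3 (log2) for each of the 30 measured genes in the 4 single-culture groups, ordered by the mean gap. Slc16a3, Eno2, Egln3, Hk2, Pfkl, Bnip3 and Pdk1 lie below 0 in every group and Angptl4 lies above 0 in every group, while the points of Pgk1, Pkm and Hif1a lie between -0.27 and 0.25.

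The core letters to which HIF binds, ACGTG or GCGTG, were looked for on both strands of the promoter windows that RefSeq gives for assembly GRCm38.p6, from 250 bases before to 50 bases after each annotated start. Of the 34 genes 30 had a window. These are not the same 30 as the measured genes. Bnip3l, Epas1, Ndrg1 and Angptl4 had no window, whereas Gpi1, Eno1 and Gapdh had one. Either core was found in 27 of these 30, beside 46.7% of all 27025 genes with a window and 59.3% of the 14452 that were also measured here. ACGTG alone was in 21 of 30, beside 21.8% of all genes and 26.1% of the measured ones. A gene counted if any of its windows held a core, and some genes, such as Pfkm, Aldoa and Kdm3a, have several windows. Known HIF targets are in the set by choice, so its share above that of all genes is not a finding of these data. The E-box CACGTG, which MYC and other factors bind, holds the core on both strands, so a match does not name a factor. The windows of Gpi1, Tpi1 and Eno2 held neither core. The 250 bases before the start are shown for 4 of those genes with a core, Slc16a3, Egln3, Hk2 and Bnip3, and for Ldha, the enzyme that turns pyruvate into lactate, which had the smallest p of the set with Norrin. They run 5′ to 3′ on the strand of the gene, and capitals mark each core or its reverse complement, CACGT for the first core and CACGC for the second.
Slc16a3, chr11:120948817-120949066, plus strand: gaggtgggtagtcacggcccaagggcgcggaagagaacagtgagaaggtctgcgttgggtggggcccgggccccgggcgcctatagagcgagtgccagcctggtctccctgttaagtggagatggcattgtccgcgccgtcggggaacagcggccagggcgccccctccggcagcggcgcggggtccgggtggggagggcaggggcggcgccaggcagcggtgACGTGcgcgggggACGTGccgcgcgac
Egln3, chr12:54203875-54204124, minus strand: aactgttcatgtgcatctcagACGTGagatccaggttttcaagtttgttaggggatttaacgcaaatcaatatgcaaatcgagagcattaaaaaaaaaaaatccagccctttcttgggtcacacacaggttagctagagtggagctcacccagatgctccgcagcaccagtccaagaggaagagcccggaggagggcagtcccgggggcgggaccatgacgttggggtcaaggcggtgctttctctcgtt
Hk2, chr6:82774455-82774704, minus strand: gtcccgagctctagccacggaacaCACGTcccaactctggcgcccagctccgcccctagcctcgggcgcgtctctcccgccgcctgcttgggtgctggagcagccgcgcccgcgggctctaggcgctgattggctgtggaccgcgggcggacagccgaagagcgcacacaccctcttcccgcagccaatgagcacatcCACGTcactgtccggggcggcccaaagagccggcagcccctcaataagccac
Bnip3, chr7:138909507-138909756, minus strand: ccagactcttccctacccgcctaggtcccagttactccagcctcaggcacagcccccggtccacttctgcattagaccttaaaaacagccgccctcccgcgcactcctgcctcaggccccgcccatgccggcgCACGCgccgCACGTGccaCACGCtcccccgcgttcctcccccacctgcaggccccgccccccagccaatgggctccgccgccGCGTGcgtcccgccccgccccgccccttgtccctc
Ldha, chr7:46845554-46845803, plus strand: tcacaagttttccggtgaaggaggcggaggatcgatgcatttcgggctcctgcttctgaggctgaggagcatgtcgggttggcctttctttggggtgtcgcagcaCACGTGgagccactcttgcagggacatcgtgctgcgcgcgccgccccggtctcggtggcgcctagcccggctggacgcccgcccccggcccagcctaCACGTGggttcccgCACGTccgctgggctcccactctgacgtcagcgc
In these stretches Slc16a3 and Hk2 held 2 ACGTG cores each, Egln3 1, and Bnip3 2 together with 3 GCGTG cores. The 2 ACGTG cores of Bnip3 are 1 CACGTG box read on both strands. The Ldha window shown held 5, of which 4 belong to its 2 CACGTG boxes. A second Ldha window, not shown, held no ACGTG and 1 GCGTG. The matches are a description of letters and say nothing of binding in these cells.

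Few genes of the set passed the test between Matrigel and gelatin cultures. The labels give low serum for the Matrigel cultures only. Substrate, low serum and time in culture therefore cannot be told apart in any comparison of Matrigel with gelatin. In Fz4-/- cells 1 of 30 passed between Matrigel and gelatin, a rise, beside 19.7% of all genes (7.91% higher). In wild type cells 1 rose and 2 fell, beside 18.4% of all genes (6.71% higher, 11.7% lower). Kdm3a rose in both genotypes, by 0.50 ± 0.09 in Fz4-/- cells (SE, limma adjusted p = 0.00244) and by 0.29 ± 0.09 in wild type cells (adjusted p = 0.0347). It read 9.61, 9.43 and 9.43 on Matrigel, against 9.09, 8.90 and 8.98 on gelatin in Fz4-/- cells, and 9.01, 8.84 and 8.97 on Matrigel, against 8.63, 8.66 and 8.66 on gelatin in wild type cells. No Matrigel array overlapped the gelatin arrays of its genotype. In wild type cells the call ended without array 1 or 3 on Matrigel, without any 1 of the gelatin arrays, and without Fz4-/- gelatin array 3, at 0.26 to 0.30.

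Angptl4 fell on Matrigel in wild type cells by the probe set used. It read 9.20, 8.14 and 8.05 on Matrigel, against 11.03, 9.73 and 9.72 on gelatin in wild type cells, a difference of -1.70 ± 0.45 (limma adjusted p = 0.0236). In Fz4-/- cells it read 9.21, 8.42 and 8.28 on Matrigel, against 10.60, 9.40 and 9.31 on gelatin, a difference of -1.13 ± 0.45 (adjusted p = 0.103). No Matrigel array reached a gelatin array of the same genotype. The responses of the genotypes differed by 0.57, with a 95% confidence interval from -0.84 to 1.97. The wild type call ended without Matrigel array 2 or 3 or gelatin array 1, at -1.54, -1.49 and -1.26. With the gene's second probe set in its place the difference was -0.80 and did not pass (adjusted p = 0.0526). Pfkp, the platelet-type phosphofructokinase, fell by 0.37 ± 0.10 in wild type cells (adjusted p = 0.0306), a call that ended without any 1 of the 6 wild type arrays, at -0.34 to -0.39.

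With the replicate number as a block, 9 of 30 genes passed in Fz4-/- cells, beside 28.2% of all genes, and 6 in wild type cells, beside 26.4%. The pairing is uncertain here. Deviations from the group mean correlated best with the same-numbered array in 3 of 6 cases in Fz4-/- and 2 of 6 in wild type cells. In wild type cells only array 1 matched its namesake best. Egln3, the prolyl hydroxylase that HIF induces, passed in both, at 1.07 in Fz4-/- and 0.73 in wild type cells. It read 9.39, 10.16 and 10.23 on Matrigel, against 8.06, 9.32 and 9.20 on gelatin in Fz4-/- cells, so that each numbered array was higher on Matrigel than its namesake. Hk2 passed in both as well, at -0.92 in Fz4-/- and -0.91 in wild type cells, with 6.35, 7.42 and 7.59 on Matrigel, against 7.52, 8.30 and 8.30 on gelatin in Fz4-/- cells. Angptl4 (-1.13), Ankrd37 (0.90), Pfkfb3 (-0.89), Eno2 (0.73), Pfkp (-0.27) and Epas1 (0.26) passed in Fz4-/- cells and Slc16a3 (-0.43) in wild type cells. Ankrd37 came closest to a difference between the responses, at 1.46 ± 0.41, which did not pass (adjusted p = 0.799).

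Genes of the same pathways outside the set were counted as well. Of 31 measured genes of glucose uptake and lactate handling, 4 were higher in Fz4-/- cells on gelatin, among them the glucose transporter Slc2a3 at 1.11 ± 0.19 (limma adjusted p = 0.00248), and on Matrigel 1 was higher and 2 lower. Of all genes 7.21% were higher and 7.73% lower on gelatin, and 6.91% higher and 8.77% lower on Matrigel. Of 30 further HIF pathway genes, 4 were higher in Fz4-/- cells on gelatin, and on Matrigel 5 were higher and 1 lower. Of 17 genes of the citric acid cycle 3 were lower in Fz4-/- cells on Matrigel, with the pyruvate carboxylase Pcx at -1.19 ± 0.31 (adjusted p = 0.0215). The pyruvate dehydrogenase kinase Pdk4 was higher in Matrigel cultures, which were also in low serum, than in gelatin cultures. The difference was 1.27 ± 0.27 in Fz4-/- cells (limma adjusted p = 0.00696) and 1.02 ± 0.27 in wild type cells (adjusted p = 0.0215). Hmox1, the heme oxygenase, rose by 1.82 ± 0.32 in Fz4-/- and 1.24 ± 0.32 in wild type cells, and Arnt2, a partner of the HIF alpha subunits, by 1.17 ± 0.36 and 1.24 ± 0.36 (adjusted p = 0.043 and 0.0361). Cited2, a HIF-induced protein that restrains HIF, fell by 1.05 ± 0.16 in Fz4-/- cells and by 1.09 ± 0.16 in wild type cells, and the vasoactive peptide gene Adm fell by 0.98 ± 0.14 and 1.03 ± 0.14. In all, 3 of the 30 HIF pathway genes were higher and 5 lower in Matrigel than in gelatin cultures of Fz4-/- cells. In wild type cells 4 were higher and 6 lower. Of the 31 glucose and lactate genes 2 were higher and 4 lower in Fz4-/- cells, and 1 was higher and 5 lower in wild type cells. Of all genes 7.91% were higher and 11.8% lower in Fz4-/- cells, and 6.71% higher and 11.7% lower in wild type cells.

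In co-culture the question was how the cells answer Norrin, with and without its receptor. In wild type co-cultures 5 of the 30 genes were higher and 5 lower with Norrin-expressing than with control HEK293 cells, beside 9.57% of all genes (5.39% higher, 4.18% lower). In Fz4-/- co-cultures 1 of 30 passed, a fall, beside 0.456% (0.242% lower). The difference between the 2 responses was tested itself and passed for 5 of 30 genes (2 higher, 3 lower in Fz4-/-), beside 2.12% of all genes (0.874% higher, 1.24% lower). Genotype and array set cannot be told apart in this difference either. The endothelial marker list moved with these results. It lay at 7.37 to 7.75 in wild type cultures with Norrin-expressing cells, against 6.45 to 6.68 with control cells, with 9 of its 10 genes past the test, a median difference of 1.02, whereas it lay at 7.63 to 7.85 with Norrin-expressing cells, against 7.44 to 7.58 with control cells, in Fz4-/- cultures, a median difference of 0.26 with no gene past limma's test. The fibroblast list lay at 4.56 to 4.81 with Norrin-expressing and 5.06 to 5.21 with control cells in wild type cultures. Of its 5 genes 1 was higher and 1 lower, with a median difference of 0.05 and single genes from -2.91 to 0.80. In Fz4-/- cultures that list lay at 3.05 to 3.20 and 3.17 to 3.28. In bulk RNA from a mixture, more endothelial cells and more RNA per cell cannot be told apart, and neither can Norrin and other differences between the HEK293 lines. The part of the cell mixture in the results below was not tested.

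Ldha rose most clearly. It read 8.83, 9.12 and 9.15 in wild type cultures with Norrin-expressing cells, against 8.29, 8.29 and 8.27 with control cells. The 3 control arrays lay close together and below every array with Norrin. The difference was 0.75 ± 0.11 (SE, limma adjusted p = 0.000132). In Fz4-/- cultures Ldha read 8.56, 8.71 and 8.62 with Norrin-expressing cells, against 8.65, 8.57 and 8.69 with control cells, and the arrays overlapped. The response in Fz4-/- minus that in wild type cultures was -0.75 ± 0.15 (adjusted p = 0.01).

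Pfkfb3, the kinase that makes the phosphofructokinase activator, read 5.96, 6.39 and 6.10 in wild type cultures with Norrin-expressing cells, against 5.16, 5.37 and 5.86 with control cells, a rise of 0.68 ± 0.15 (limma adjusted p = 0.00708). A second Pfkfb3 probe set differed by 0.04. In Fz4-/- cultures Pfkfb3 stayed between 3.19 and 3.60, near the median of those arrays. The difference between the responses was -0.89 ± 0.22 (adjusted p = 0.0367), and that call ended without any 1 of 10 of the 12 arrays, at -0.74 to -0.96. With the mean of its probe sets it was -0.50 (adjusted p = 0.0566). Also higher with Norrin in wild type cultures were Kdm3a by 0.52 ± 0.14 (adjusted p = 0.0271), Egln3 by 0.49 ± 0.14 (adjusted p = 0.0354), with a second probe set at 0.50, and Pgam1, the phosphoglycerate mutase, by 0.38 ± 0.10 (adjusted p = 0.0246). These 3 calls each ended without wild type array 2 with Norrin-expressing cells, at 0.41 for Kdm3a, 0.45 for Egln3 and 0.32 for Pgam1, and without some other single arrays. Without wild type array 1 with control cells, Kdm3a differed by 0.34 and did not pass.

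Other genes of the set fell with Norrin in wild type cultures, so the enzymes did not move together. Hif1a read 8.99, 8.73 and 8.75 with Norrin-expressing cells, against 9.89, 9.47 and 9.60 with control cells, a fall of 0.83 ± 0.13 (limma adjusted p = 0.000284). Its 3 other probe sets gave -0.80, 0.01 and 0.76, so the direction of Hif1a depends on the probe set, and the mean of its probe sets gave -0.21 (adjusted p = 0.404). Hk2 read 4.41, 3.80 and 4.64 with Norrin-expressing cells, against 4.97, 5.13 and 5.26 with control cells, a fall of 0.84 ± 0.17 (adjusted p = 0.00338). Eno2 read 4.54, 5.30 and 5.46 with Norrin-expressing cells, against 5.76, 6.02 and 6.17 with control cells, a fall of 0.88 ± 0.18 (adjusted p = 0.00435). Aldoa, an aldolase, fell by 0.49 ± 0.10 (adjusted p = 0.00307), and its 4 other probe sets gave -0.43 to -0.14. Angptl4 fell by 0.53 ± 0.14 (adjusted p = 0.0175), with a second probe set at 0.12 and the call lost without wild type array 1 or 3 with control cells or array 2 or 3 with Norrin-expressing cells, at -0.44 to -0.52.

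In Fz4-/- cultures Hif1a read 8.38, 8.66 and 8.43 with Norrin-expressing cells, against 8.40, 8.21 and 8.38 with control cells. The difference between the responses was 0.99 ± 0.18 (limma adjusted p = 0.00474) for this probe set and 0.33 for the mean of the probe sets (adjusted p = 0.557). Hk2 read 4.98, 4.88 and 5.04 with Norrin-expressing cells, against 4.70, 4.68 and 4.28 with control cells. These arrays did not overlap, but the difference of 0.41 did not pass, and the responses differed by 1.25 ± 0.24 (adjusted p = 0.00792). Pfkp was the single gene past the test in Fz4-/- cultures. It read 4.01, 4.04 and 4.11 with Norrin-expressing cells, against 4.58, 4.53 and 4.59 with control cells, a fall of 0.51 ± 0.11 (adjusted p = 0.0481). Its other 2 probe sets gave -0.22 and 0.08, and the call ended without any 1 of the Fz4-/- co-culture arrays, at -0.49 to -0.54, and without any 1 of 3 wild type arrays. The responses of Pfkp differed by -0.65 ± 0.16 (adjusted p = 0.0341), a call that ended without any 1 of 10 of the 12 arrays, at -0.57 to -0.68, and that was -0.33 with the mean of its probe sets (adjusted p = 0.324). Ldha, Hk2 and Hif1a kept the difference between the responses past the threshold without any 1 of the 12 arrays. With the replicate number as a block, 6 of 30 passed, beside 2.59% of all genes, with Egln3 added at -0.64.

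**Figure D4:**
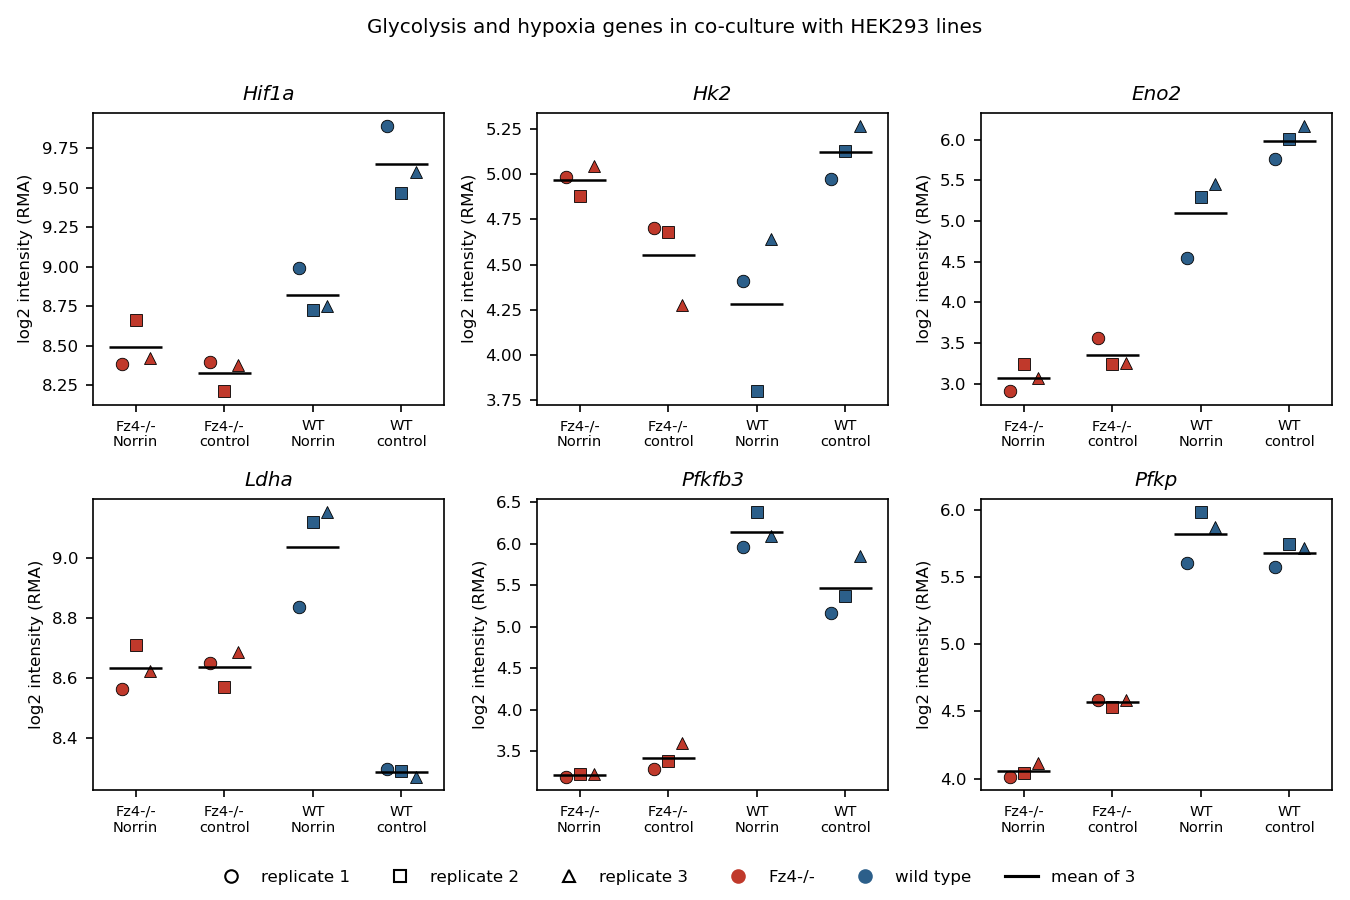
Log2 intensity of 6 genes on the 12 co-culture arrays, by genotype and HEK293 line, with a bar at the mean of 3 arrays. In wild type cultures (blue) Ldha and Pfkfb3 are higher and Hif1a, Hk2 and Eno2 lower with Norrin-expressing than with control cells, and in Fz4-/- cultures (red) Pfkp alone passed the test.

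Between the genotypes, 25 of 30 genes passed in co-cultures with Norrin-expressing cells (3 higher, 22 lower in Fz4-/-), beside 49.9% of all genes (11.5% higher, 38.4% lower). With control cells 21 passed (2 higher, 19 lower), beside 50.9% (12.1% higher, 38.8% lower). With each array centred on its median, 15 and 13 of the 30 passed. The share of all genes after centring is not given here, so these counts cannot be set against it. The median difference over the 30 genes was -0.44 with Norrin-expressing and -0.39 with control cells, and over all genes it was -0.20 in both. Pfkfb3 differed by -2.93 with Norrin-expressing and -2.04 with control cells, Eno2 by -2.03 and -2.63, Epas1 by -2.15 and -1.58, and Pfkp by -1.76 and -1.11 (SE between 0.11 and 0.18). When all probe sets of a gene were averaged, Pfkfb3 differed by -1.55 and -1.04 and Pfkp by -0.85 and -0.52. Pfkfb3 (3.19 to 3.60) and Eno2 (2.91 to 3.56) lay near the median of all probe sets on the Fz4-/- arrays, and no detection call was used, so these are differences of intensity and may understate the change. Epas1 was lower in Fz4-/- single cultures too. Ldha differed by -0.40 with Norrin-expressing and 0.35 with control cells, and Hk2 by 0.68 and -0.57. After centring, Ldha with Norrin-expressing cells was at -0.19 and did not pass (limma adjusted p = 0.212). Ndrg1 was at -0.55 and -0.51 here, whereas it differed by 1.24 and 1.15 in single cultures, and Pkm was at 0.49 and 0.42. Markers of other cell types moved with this comparison. Of 5 fibroblast genes 4 were lower in Fz4-/- with each HEK293 line, with medians of -1.29 with Norrin-expressing and -0.96 with control cells, and of 7 mural genes 5 and 4 were lower. Of 10 endothelial genes 5 were higher and 2 lower with Norrin-expressing cells (median 0.24), and 8 were higher and 1 lower with control cells (median 0.93). Their part in these values was not tested, and genotype and array set cannot be told apart.

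**Figure D5:**
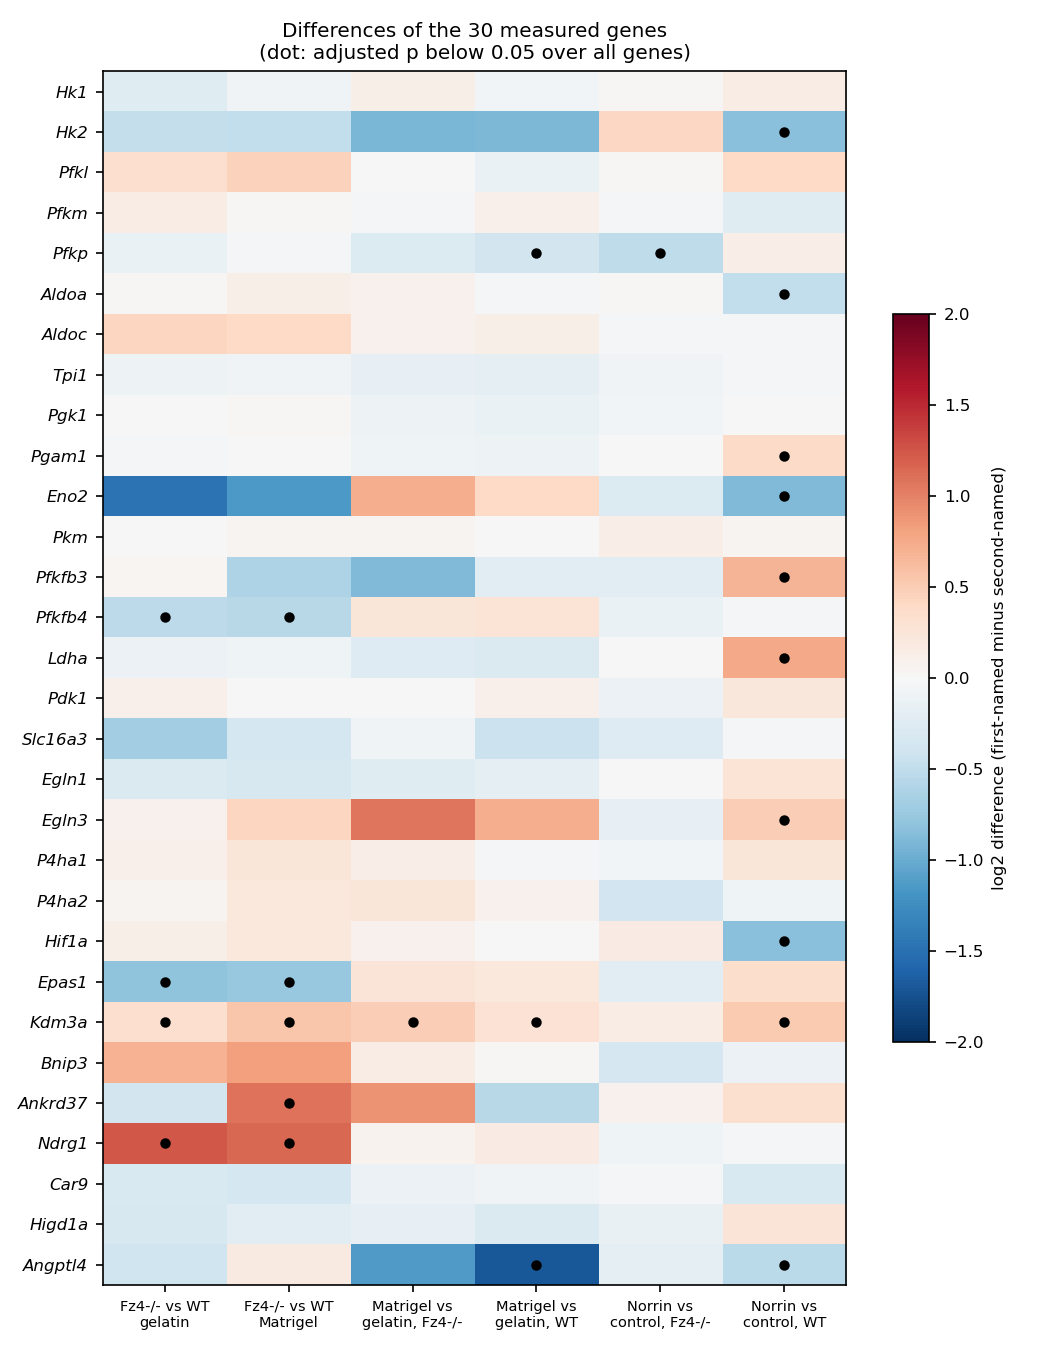
Log2 differences of the 30 measured genes (rows, by role) in 6 comparisons (columns), coloured from blue (lower in the first-named group) to red (higher), with a dot where limma's adjusted p was below 0.05. No glycolytic enzyme, from Hk1 to Pkm, has a dot in the columns that compare the genotypes on gelatin and on Matrigel, and the Norrin column of wild type cultures holds 10 dots.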

How the data were processed

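The authors deposited log2 intensities for 45101 Affymetrix probe sets on 24 arrays, made with RMA, as the tool is named per the submitters' processing notes without a version. Which arrays were normalized together is not given in the sources used here. Control probe sets (64), those with several symbols (932) and those with none (9160) stayed out of the fits; 34945 remained, and RefSeq (GRCm38.p6) held 34741 of them by gene ID. The number of arrays limits the precision.

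limma 3.58.1 was run in R 4.3.3, with version 1.17.8 of data.table. Group means were fitted separately for 12 single cultures and 12 co-cultures (8 residual degrees of freedom each), with empirical Bayes moderation, and p-values were adjusted over 18193 genes. With 3 arrays against 3 the smallest exact two-sided p for 1 gene is 0.1. The procedure was tested on simulated data. Figures used matplotlib 3.10.9 with numpy 2.4.6, pandas 2.3.3 and Python 3.11.15.

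Pairing was checked by correlating, over genes, deviations from group means between same-numbered arrays. Every pair exceeded 0.1 in the comparisons of single cultures (0.24 to 0.72), the wild type Norrin comparison (0.10 to 0.36) and the genotype comparison with Norrin-expressing cells (0.14 to 0.37), but not for Norrin in Fz4-/- (-0.19 to 0.01) or genotype with control cells (-0.05 to 0.07). Nothing in the labels says what a number marks.

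The members, gene lists and tests were chosen with earlier results of these data known. Named genes are the 34 members, Fzd4, and genes of the pathway lists past the threshold with a log2 difference of at least 1 and no overlap between arrays, at most 4 per list and comparison. Alternatives were median centring or quantile normalization, averaged probe sets, no cross-hybridizing probe sets, all arrays in 1 fit, only the brighter genes (mean above the median), a robust trended variance, a minimum of 2-fold, the replicate block, replicates 2 and 3 averaged, and leaving out arrays.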

Additional observations from a re-analysis of the deposited data

Results flagged for a closer look

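The change with Norrin-expressing against control HEK293 cells differed between the genotypes in 5 glycolysis and hypoxia genes, as limma tested that difference over all 18193 genes, of which 2.12% passed. The response in Fz4-/- minus that in wild type cultures was 1.25 ± 0.24 for Hk2 (SE, adjusted p = 0.00792), 0.99 ± 0.18 for Hif1a (adjusted p = 0.00474), -0.89 ± 0.22 for Pfkfb3 (adjusted p = 0.0367), -0.75 ± 0.15 for Ldha (adjusted p = 0.01) and -0.65 ± 0.16 for Pfkp (adjusted p = 0.0341). For Hk2, Hif1a, Pfkfb3 and Ldha the larger of the 2 responses was that of the wild type cultures, and for Pfkp it was that of the Fz4-/- cultures. When all probe sets of a gene were averaged, the values were 0.33 for Hif1a (adjusted p = 0.557), -0.50 for Pfkfb3 (adjusted p = 0.0566) and -0.33 for Pfkp (adjusted p = 0.324), and Hk2 and Ldha still passed. Genotype and array set cannot be told apart in this difference. With median centring 3 of the 5 genes still passed, and with all 24 arrays in 1 fit 2 did. The endothelial marker list also responded differently, with 5 of its 10 genes lower in this contrast. Wild type array 1 with control cells had the largest 3′ to 5′ difference of the actin control among the co-cultures, 1.62 against 0.54 to 0.79. Without that array the differences for Pfkfb3 and Pfkp were -0.74 (adjusted p = 0.0676) and -0.60 (adjusted p = 0.0587).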

How the results depend on the processing

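Counts below are of the 30 genes. The share of all genes that passed moved with the setting too, so a count without that share is no result about the set. With the replicate number as a block, 12 passed for genotype on gelatin, 11 on Matrigel, 9 for Matrigel in Fz4-/- and 6 in wild type. Of all genes 22.7%, 24.1%, 28.2% and 26.4% passed, in the same order. No other count moved by over 1.5 times with the block. For Norrin in Fz4-/- and genotype with control cells, same-numbered arrays correlated at -0.19 to 0.01 and -0.05 to 0.07, and the block gave 1 and 21. The best correlation was with the same number in 0 and 2 of 6 cases there. For Matrigel in Fz4-/- and wild type it was so in 3 and 2 of 6. Leaving out arrays, including array 1 of every group, gave 3 to 13 for genotype on gelatin, 4 to 14 on Matrigel, 1 to 9 for Matrigel in Fz4-/-, 0 to 6 in wild type, 6 to 15 for Norrin in wild type, 0 to 1 in Fz4-/-, 3 to 7 for the difference between the Norrin responses, and, for genotype, 21 to 25 with Norrin-expressing and 18 to 22 with control cells. The upper values 13, 14, 9 and 6 are those without array 1 of every group, where 27%, 26.7%, 30.2% and 28% of all genes passed. Single arrays that moved a count by over 1.5 times were Fz4-/- and wild type gelatin array 1 (2 each) and wild type Matrigel array 1 or 3 (3 each) for Matrigel in Fz4-/-, all 6 wild type arrays (0 or 1) for Matrigel in wild type, wild type Norrin array 2 (6) for Norrin in wild type, and, for the difference between responses, wild type control array 1, wild type Norrin arrays 2 and 3 and every Fz4-/- array (3 each). Without any Fz4-/- co-culture array, wild type control array 2 or 3 or wild type Norrin array 3, 0 passed for Norrin in Fz4-/-. With replicates 2 and 3 averaged, 1 passed for genotype in each medium, 0 for Matrigel in each genotype, 6 and 0 for Norrin in wild type and Fz4-/-, and 1 for the difference between responses. With at least a 2-fold difference the counts were 1 on gelatin, 2 on Matrigel, 0 and 1 for Matrigel in Fz4-/- and wild type, 0 for Norrin in each genotype, 1 for the difference between responses and 5 for genotype with each HEK293 line. All 24 arrays in 1 fit gave 6 for Matrigel in Fz4-/-, 5 for Norrin in wild type, 2 for the difference between responses and 12 for genotype with control cells. Median centring gave 15 and 13 for genotype with Norrin-expressing and control cells, 3 for Matrigel in Fz4-/-, 3 for the difference between responses and 0 for Norrin in Fz4-/-. The last was also 0 with the mean of probe sets, without cross-hybridizing probe sets and with a trended robust variance. The mean of probe sets gave 2 for the difference between responses, and quantile normalization 3 for Matrigel in Fz4-/-. Without cross-hybridizing probe sets Angptl4 turned from -0.53 to 0.12 for Norrin in wild type and from 0.42 to -0.28 for genotype with Norrin-expressing cells, since another probe set stands for the gene. Other causes were not tested.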
